A study of Mus musculus with 4 samples.

Results

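The genes of the endoplasmic reticulum (ER) that fold secreted proteins, form their disulfide bonds and send failed products to degradation were described in mouse liver, together with the sensors that regulate them. They were chosen as a list of 37 gene symbols, each read from the array row whose annotation named that gene alone, and 36 of the 37 were measured among 22180 genes in all. Ero1l and Ero1lb of the list stand on the array under their current symbols Ero1a and Ero1b. Pdia4 was not analysed here, because its row also names a microRNA gene. The mice were wild-type males of C57BL/6J, a common inbred strain, assigned at 6 weeks of age to a diet kept for 20 weeks. The MCD diet group received chow lacking methionine and choline, a standard way of producing fatty and inflamed liver in mice, and the normal diet group received normal chow. Each group had 2 samples on 1 gene-level array each. The labels number the samples as mice but do not say whether an array held RNA of 1 animal, so a p-value here reflects only the spread among these samples, which may be technical. Values are the authors' deposited log2 signals, and a difference is MCD diet minus normal diet on that log2 scale, so a difference of 1 is a doubling.

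The ER is where hepatocytes make the plasma proteins they secrete. New chains enter through the Sec61 channel, are bound by the chaperones BiP (Hspa5) and GRP94 (Hsp90b1) or, when glycosylated, by calnexin and calreticulin, and receive disulfide bonds from the protein disulfide isomerases, which Ero1 oxidases keep oxidised. Chains that fail to fold are recognised by EDEM proteins and drawn back through a channel of Sel1l, the ubiquitin ligase Syvn1 (HRD1), Herpud1 and the derlins to be degraded by the proteasome. The sensors IRE1 (Ern1), PERK (Eif2ak3) and ATF6 watch over this balance in the unfolded protein response: IRE1 splices the mRNA of the transcription factor Xbp1, ATF6 is cleaved into a transcription factor, and PERK slows translation and favours that of ATF4.

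Many of these genes share a promoter element, the ER stress response element (ERSE), to which ATF6 binds together with the CCAAT factor NF-Y. RefSeq promoter sequences (build GRCm38.p6), running from 250 bases before to 50 bases after the annotated start, were matched for 32 of the 36 measured genes. The element, CCAAT and CCACG with 9 bases of any kind between them, was searched on both strands and was present in 10 of the 32, against 0.137% of the 27025 genes with a promoter in the table. It occurred in chaperone genes, in disulfide enzyme genes and in genes of degradation. The sites of these 10 genes follow on the strand that carries the element, with its fixed bases in capitals. The list was chosen by function and includes known stress-induced genes, and its share was not tested against the background.
Hspa5 (chr2:34772025-34772043, + strand): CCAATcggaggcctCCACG
Hsp90b1 (chr10:86705638-86705656, - strand): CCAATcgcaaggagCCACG
Hsp90b1 (chr10:86705533-86705551, + strand): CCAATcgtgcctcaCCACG
Calr (chr8:84847075-84847093, + strand): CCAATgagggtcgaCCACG
Canx (chr11:50325800-50325818, - strand): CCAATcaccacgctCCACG
Dnajc3 (chr14:118937827-118937845, + strand): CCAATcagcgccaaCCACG
Pdia6 (chr12:17266491-17266509, + strand): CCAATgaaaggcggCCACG
Creld2 (chr15:88819520-88819538, - strand): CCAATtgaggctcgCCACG
Ero1b (chr13:12565682-12565700, - strand): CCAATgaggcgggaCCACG
Syvn1 (chr19:6046532-6046550, + strand): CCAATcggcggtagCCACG
Derl3 (chr10:75893242-75893260, - strand): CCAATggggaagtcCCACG
The related ERSE-II, ATTGG and CCACG with 1 base of any kind between them, was searched the same way and was present in 2 of the 32 genes and in 0.0444% of all genes with a promoter. No gene of the list carried both elements, so the matches do not overlap.
Herpud1 (chr8:94386377-94386387, + strand): ATTGGgCCACG
Dnajb11 (chr16:22857852-22857862, + strand): ATTGGcCCACG
The core of an XBP1 site, TGACGTGG, searched on both strands, was present in 0 of the 32 promoters and in 0.714% of all genes with a promoter. No other form of the site and no bases outside this window were searched. The 0 therefore does not show that these genes lack XBP1 sites. For Hspa5, the standard reporter of the unfolded protein response, and for Herpud1, the gene of the list that fell furthest, the 250 bases before the start are given whole, with the element in capitals.
Hspa5 (chr2:34771840-34772089, + strand): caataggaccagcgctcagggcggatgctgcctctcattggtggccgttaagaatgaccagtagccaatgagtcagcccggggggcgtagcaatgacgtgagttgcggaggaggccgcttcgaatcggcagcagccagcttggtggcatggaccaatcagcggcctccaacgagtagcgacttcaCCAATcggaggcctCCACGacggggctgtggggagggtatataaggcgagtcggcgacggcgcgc
Herpud1 (chr8:94386179-94386428, + strand): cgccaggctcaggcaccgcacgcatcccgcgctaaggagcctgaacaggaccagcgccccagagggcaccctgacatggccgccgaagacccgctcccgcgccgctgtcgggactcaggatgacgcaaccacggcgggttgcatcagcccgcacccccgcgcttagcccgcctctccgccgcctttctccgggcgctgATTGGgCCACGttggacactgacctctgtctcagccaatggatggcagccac
In Hspa5 the element lay 65 to 47 bases before the start, and in Herpud1 it lay 52 to 42 bases before it. A match describes the letters and does not show that a factor binds there. Only exact matches were counted, so the promoters may also hold near-matches.

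The comparison asks how the MCD diet changed this machinery. After 20 weeks of MCD diet, 0 of 10 chaperone genes passed. BiP, GRP94, calreticulin and calnexin differed by 0.06 to 0.15 on the log2 scale, but Hyou1 by -0.59 and Sdf2l1 by -0.52. The 4 genes that fell, Herpud1, Edem1, Ero1b and Xbp1, serve degradation, oxidation or the IRE1 branch. Derl1, also of degradation, differed by 0.56 without a call. Whether the roles differed from each other was not tested. A single gene rose, Dnajc10, which encodes the disulfide reductase ERdj5. Thus 1 gene rose and 4 fell of the 36 at an adjusted p under 0.05 in limma (a linear model with moderated variances, adjusted over all genes), which is 13.9% of the list. Over all genes tested the same rule called 9.98%, with 6.37% higher and 3.62% lower. All but 1 of the 36 lay above the median signal, and among genes above that median 18.1% were called, so the share of the list that passed was within the range of these backgrounds. Lower calls made up 11.1% of the list, against 6.61% of the brighter genes, and higher calls 2.78%, against 11.5%. This split depended on the scaling: under quantile normalization 3 genes of the list rose and 3 fell. At an unadjusted p under 0.05 there were 12 of the 36, or 33.3%, against 24.2% of all genes and 38.2% of those above the median signal. The median difference was -0.029 over the list, -0.033 over all genes and 0.05 over those above the median signal. The differences ran from -0.85 to 0.95, so 0 of the 36 reached a difference of 1 in either direction, against 5.25% of all genes and 9.89% of those above the median signal. For 21 of the 36 genes both MCD diet arrays lay on 1 side of both normal diet arrays, above them for 8 and under them for 13. That is 58.3% of the list, against 54.2% of all genes and 64.1% of those above the median signal. In bulk liver, fewer cells of a type and less RNA per cell cannot be told apart.

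**Figure D1:**
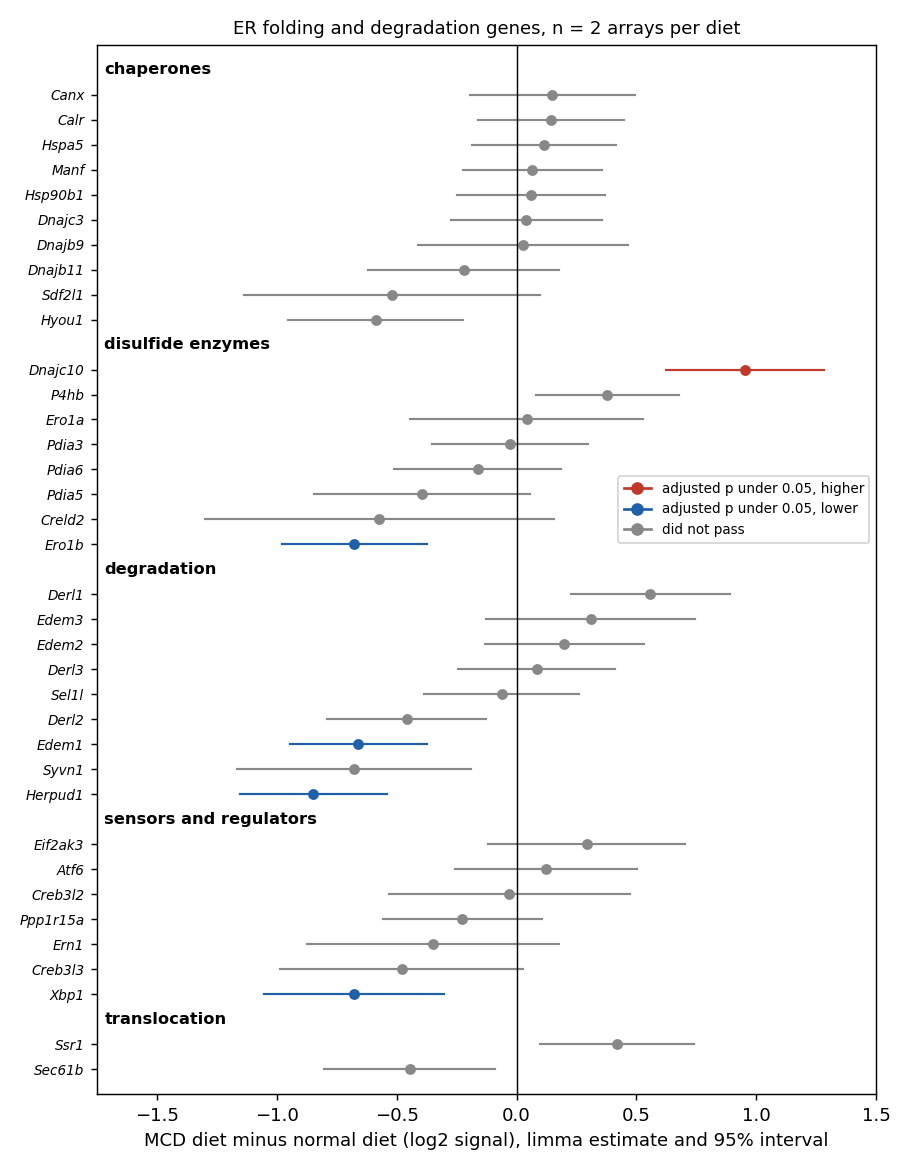
Difference between MCD diet and normal diet livers on the log2 scale for the 36 measured genes, by role, with limma's 95% interval (n = 2 arrays per diet). The 4 blue genes passed as lower and the red gene, Dnajc10, as higher, while most chaperone intervals are centred near 0.

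Of the 10 chaperone genes, all above the median signal, 0 passed limma's threshold. Over all genes 9.98% passed, and among those above the median signal 18.1%. At an unadjusted p under 0.05 there was 1 of the 10, or 10.0%, against 24.2% of all genes and 38.2% of those above the median signal. The median difference of the chaperones was 0.051, and it turned to -0.015 when each array was centred on its median. Hspa5, which encodes BiP, the chaperone that also restrains the stress sensors, had 8.20 and 8.30 in MCD diet livers, against 8.19 and 8.08 in normal diet livers. The arrays of the diets barely separated, and the difference was 0.11 ± 0.12, with a 95% interval from -0.19 to 0.41. That interval leaves out a doubling of Hspa5. Here and in what follows ± gives limma's standard error, from 2 arrays of each diet. Its variance is moderated by that of all genes, so it can exceed the spread of a gene's own arrays.

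Hsp90b1, the ER form of HSP90, had 10.46 and 10.58 in MCD diet livers, against 10.39 and 10.52 in normal diet livers. The groups overlapped, and the interval of the difference ran from -0.25 to 0.37. Of the lectin chaperones, Calr (calreticulin) had 10.49 and 10.52 in MCD diet livers, against 10.29 and 10.44 in normal diet livers. Canx (calnexin) had 9.77 and 9.92 in MCD diet livers, against 9.57 and 9.81 in normal diet livers. Their differences, 0.14 ± 0.12 and 0.15 ± 0.14, were about as large as their standard errors.

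The J proteins hand substrates to BiP. Dnajb9 (ERdj4), an inducible one that is a known target of XBP1, had 8.35 and 8.44 in MCD diet livers, against 8.60 and 8.13 in normal diet livers. The MCD diet values lay between the normal diet values. Dnajc3 (p58IPK), which also inhibits PERK, had 9.02 and 8.97 in MCD diet livers, against 8.86 and 9.05 in normal diet livers, again within the normal diet range. Dnajb11 (ERdj3) differed by -0.22 ± 0.16, with a single high normal diet array at 7.78 and the other 3 arrays between 7.34 and 7.38. Manf, a small secreted ER protein induced by stress, was dim on all 4 arrays, at 3.65 to 3.79.

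Lower values without a call were found for both remaining chaperone genes. Hyou1 (GRP170), the nucleotide exchange factor of BiP, had 7.95 and 7.92 in MCD diet livers, against 8.36 and 8.68 in normal diet livers. The groups did not overlap, and the difference of -0.59 ± 0.15 narrowly missed the threshold (limma adjusted p = 0.0647). It passed when each array was centred on its median (adjusted p = 0.0465). Sdf2l1, a partner of the J proteins, had 5.27 and 5.44 in MCD diet livers, against 5.50 and 6.26 in normal diet livers. The normal diet arrays of Sdf2l1 lay further apart than the diets, and its difference was -0.52 ± 0.25. It was -0.90 without normal diet replicate 1 (adjusted p = 0.0459) and -0.14 without normal diet replicate 2 (adjusted p = 0.765), each time with the lone normal diet array assumed to vary like the MCD diet arrays.

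Among the disulfide enzymes, 1 of 8 rose and 1 fell, or 12.5% each, with a median difference of -0.095. Over all genes 6.37% rose and 3.62% fell, and among those above the median signal 11.5% and 6.61%. Dnajc10, whose product breaks wrong disulfides in chains bound for degradation, had 6.84 and 6.88 in MCD diet livers, against 5.79 and 6.03 in normal diet livers. Both MCD diet arrays stood well above both normal diet arrays. Dnajc10 rose by 0.95 ± 0.13, or 1.94-fold (limma adjusted p = 0.0104). The call was lost without MCD diet replicate 1 (0.97, adjusted p = 0.0518).

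The Ero1 oxidases return the isomerases to their active state. Ero1b, the less widely expressed of the pair, had 7.06 and 6.92 in MCD diet livers, against 7.64 and 7.70 in normal diet livers. The groups were far apart, and Ero1b fell by 0.68 ± 0.12, or 1.60-fold lower (limma adjusted p = 0.0241). The call was lost without any single array, at adjusted p-values of 0.0707 and 0.0947 without MCD diet replicate 1 or 2 and of 0.0814 and 0.114 without normal diet replicate 1 or 2. Ero1a had 6.07 and 6.53 in MCD diet livers, against 6.10 and 6.42 in normal diet livers. The diets overlapped for Ero1a, and its interval ran from -0.44 to 0.53, which partly overlaps that of Ero1b (-0.98 to -0.37). The difference between the responses of Ero1a and Ero1b was not tested.

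None of the 4 classical protein disulfide isomerases measured (P4hb, Pdia3, Pdia5 and Pdia6) passed, and P4hb had an unadjusted p under 0.05. P4hb (PDI), the founding enzyme of the family and also a subunit of prolyl hydroxylase in collagen synthesis, had 10.72 and 10.66 in MCD diet livers, against 10.25 and 10.37 in normal diet livers. The groups were separate, with a difference of 0.38 ± 0.12 (limma adjusted p = 0.119) that passed under quantile normalization (0.56, adjusted p = 0.0427). Pdia3 (ERp57), the partner of calnexin and calreticulin, had 9.56 and 9.51 in MCD diet livers, against 9.45 and 9.67 in normal diet livers, and the groups overlapped. Pdia6 had 8.91 and 8.95 in MCD diet livers, against 8.95 and 9.24 in normal diet livers. Only 1 normal diet array lay apart for Pdia6, whose difference was -0.16 ± 0.14. Pdia5 (-0.39 ± 0.18) and Creld2 (-0.57 ± 0.30), a secreted stress-induced protein with isomerase activity, were lower on average without a call. Creld2 scattered most within a diet, at 6.58 and 7.35 in MCD diet livers and at 7.25 and 7.82 in normal diet livers.

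Of 9 genes of ER-associated degradation 0 rose and 2 fell, or 22.2%, with a median difference of -0.06. Over all genes 3.62% fell, and among those above the median signal 6.61%. Herpud1, a membrane protein that gathers the HRD1 ligase and the derlins, had 9.16 and 9.24 in MCD diet livers, against 9.98 and 10.12 in normal diet livers. The groups were widely separate, and Herpud1 fell by 0.85 ± 0.13, or 1.80-fold lower (limma adjusted p = 0.0122). Without MCD diet replicate 1 the adjusted p was 0.0660, and without normal diet replicate 2 it was 0.0674. Edem1, which sorts misfolded glycoproteins and is a classical XBP1 target, had 7.69 and 7.75 in MCD diet livers, against 8.39 and 8.38 in normal diet livers. The replicates of each diet nearly coincided, and Edem1 fell by 0.66 ± 0.12, or 1.58-fold lower (limma adjusted p = 0.0218). A second, dimmer row of Edem1 was also lower in MCD diet livers, by -0.43. With any 1 array left out the call was lost, at adjusted p-values of 0.100 and 0.0686 without MCD diet replicate 1 or 2 and of 0.0892 and 0.0970 without normal diet replicate 1 or 2.

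The other EDEM genes had positive differences and did not pass. Edem2, which trims the first mannose of the glycan, differed by 0.20 ± 0.14 and Edem3 by 0.31 ± 0.18. The intervals of both (-0.13 to 0.53 for Edem2 and -0.13 to 0.74 for Edem3) lay above that of Edem1 (-0.95 to -0.37), but the difference between the genes was not tested.

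In the ligase complex neither core member passed. Syvn1, the HRD1 ubiquitin ligase, had 6.28 and 6.77 in MCD diet livers, against 7.35 and 7.06 in normal diet livers, and differed by -0.68 ± 0.20 (limma adjusted p = 0.0955). Its scaffold Sel1l had 8.13 and 8.19 in MCD diet livers, against 8.11 and 8.33 in normal diet livers. The groups were separate for Syvn1 but overlapped for Sel1l, whose interval ran from -0.39 to 0.26.

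Derlins form the passage through the membrane. Derl1 had 8.90 and 8.66 in MCD diet livers, against 8.20 and 8.24 in normal diet livers. Derl2 had 5.61 and 5.83 in MCD diet livers, against 6.24 and 6.12 in normal diet livers. The groups were separate for both genes and ordered oppositely, with differences of 0.56 ± 0.14 for Derl1 (limma adjusted p = 0.0575) and -0.46 ± 0.14 for Derl2 (limma adjusted p = 0.0972), so neither passed. Derl1 passed under quantile normalization (adjusted p = 0.0306), without the dimmest 50% of genes (adjusted p = 0.0482) and with an intensity trend in the moderation (adjusted p = 0.0423). Derl3, known from secretory tissues such as pancreas, was dim throughout, at 3.41 to 3.64.

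**Figure D2:**
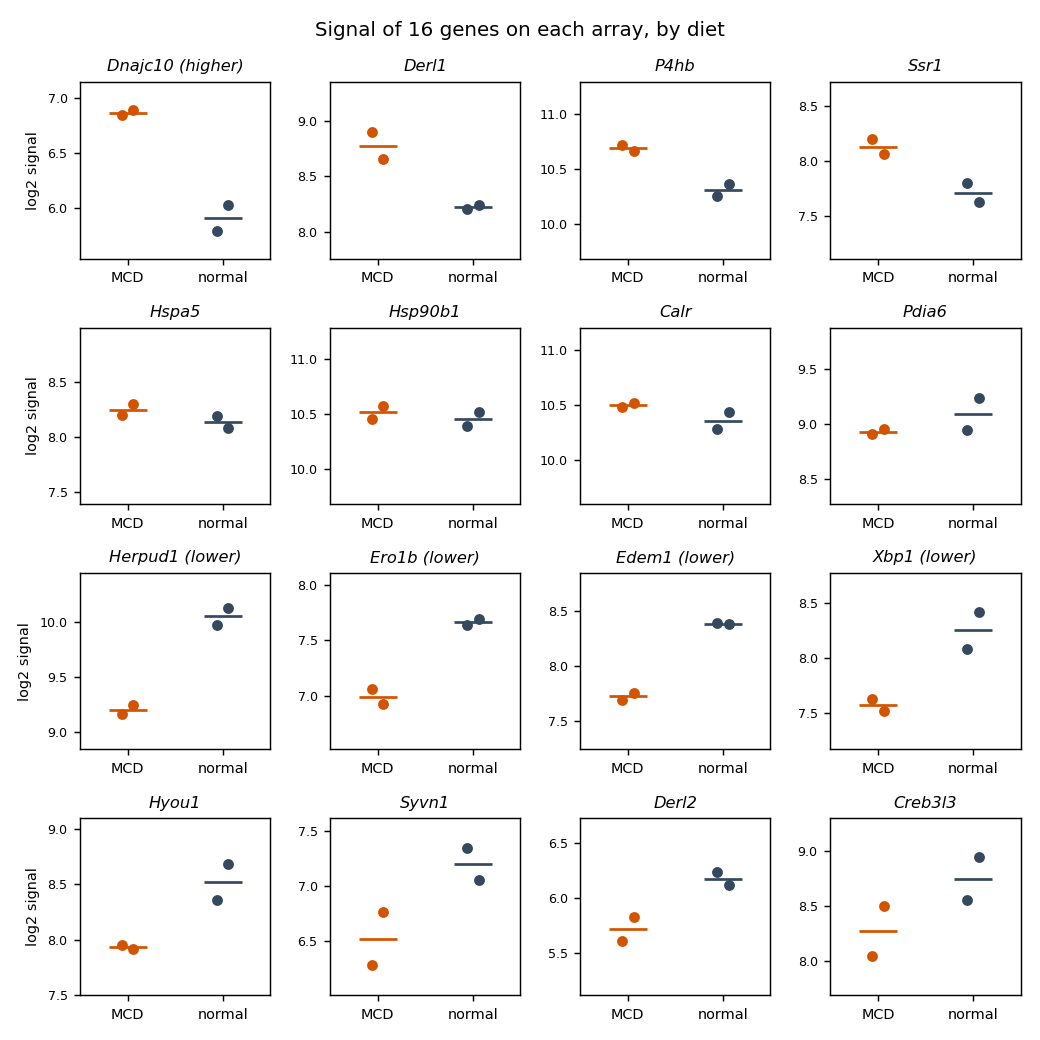
Log2 signal of 16 genes on each of the 4 arrays (points) with the mean of each diet (line), MCD diet on the left of each panel and normal diet on the right. Every panel spans the same width of log2 signal around its own midpoint, so gaps between points can be compared across panels, but heights cannot. Dnajc10 stands highest above its normal diet arrays and Herpud1 lowest below them, while the points of Hspa5, Hsp90b1, Calr and Pdia6 lie close together.

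Of the 7 sensors and regulators 0 rose and 1 fell, or 14.3%, with a median difference of -0.23. Over all genes 3.62% fell, and among those above the median signal 6.61%. Xbp1, the transcription factor activated by IRE1 splicing and required in hepatocytes for normal lipid synthesis, had 7.63 and 7.52 in MCD diet livers, against 8.09 and 8.42 in normal diet livers. The groups did not overlap, and Xbp1 fell by 0.68 ± 0.15, or 1.60-fold lower (limma adjusted p = 0.0459). This call was close to the threshold and was lost under quantile normalization (adjusted p = 0.0602) and without MCD diet replicate 1 (adjusted p = 0.133), MCD diet replicate 2 (adjusted p = 0.154) or normal diet replicate 2 (adjusted p = 0.183). The array gives 1 value per gene and does not separate spliced from unspliced Xbp1 mRNA, so it does not measure IRE1 activity.

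The sensors themselves did not pass. Ern1 (IRE1) had 7.09 and 6.62 in MCD diet livers, against 7.42 and 6.99 in normal diet livers, and the groups overlapped. Atf6 had 8.54 and 8.18 in MCD diet livers, against 8.24 on both normal diet arrays, so that its MCD diet values lay on either side. Eif2ak3 (PERK) had 5.25 and 5.27 in MCD diet livers, against 5.18 and 4.76 in normal diet livers. The differences were -0.35 ± 0.22 for Ern1, 0.12 ± 0.16 for Atf6 and 0.29 ± 0.17 for Eif2ak3.

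Among the regulators, Creb3l3 (CREB-H), a liver-enriched ER membrane factor that controls lipid and acute phase genes, had 8.04 and 8.50 in MCD diet livers, against 8.55 and 8.95 in normal diet livers. The groups just failed to overlap, and the difference of -0.48 ± 0.21 did not pass (limma adjusted p = 0.231). Its relative Creb3l2, which serves secretory capacity in cartilage, differed by -0.03 ± 0.21. Ppp1r15a (GADD34), the phosphatase subunit that ends the translation block set by PERK and itself a target of the ATF4 pathway, had 3.69 and 3.56 in MCD diet livers, against 3.96 and 3.74 in normal diet livers. It was thus dim and not higher under the MCD diet, with an interval from -0.56 to 0.11.

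Neither translocation gene passed in limma, and both had an unadjusted p under 0.05. Ssr1, a subunit of the translocon-associated complex, had 8.20 and 8.06 in MCD diet livers, against 7.79 and 7.62 in normal diet livers (0.42 ± 0.13, limma adjusted p = 0.114). Sec61b, a small subunit of the channel, had 2.54 and 2.74 in MCD diet livers, against 2.97 and 3.21 in normal diet livers (-0.45 ± 0.15, limma adjusted p = 0.125). Sec61b was the only gene of the list below the median signal, and its second row differed by 0.08, so its value is uncertain.

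The genes that carry the elements printed above did not share a direction. Of the 12 genes with ERSE or ERSE-II, 0 rose and 2 fell, with a median difference of -0.06. Of the 20 with a promoter and neither element, 1 rose and 2 fell, with a median of -0.05. Over all genes tested 6.37% rose and 3.62% fell, and among those above the median signal 11.5% and 6.61%. Within the 12, Hspa5, Hsp90b1, Calr, Canx, Dnajc3 and Derl3 differed by 0.15 or less in size, whereas Herpud1 and Ero1b fell and Syvn1 and Creld2 differed by -0.68 and -0.57 without a call. Hsp90b1, with 2 exact matches 212 to 194 and 107 to 89 bases before the start, differed by 0.06. Hspa5, with 1 exact match, differed by 0.11. Near-matches were not searched, so these are not counts of working elements. Among genes outside the list, 19 with ERSE and 7 with ERSE-II were measured, of which 2 rose and 1 fell with ERSE and 1 fell with ERSE-II.

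**Figure D3:**
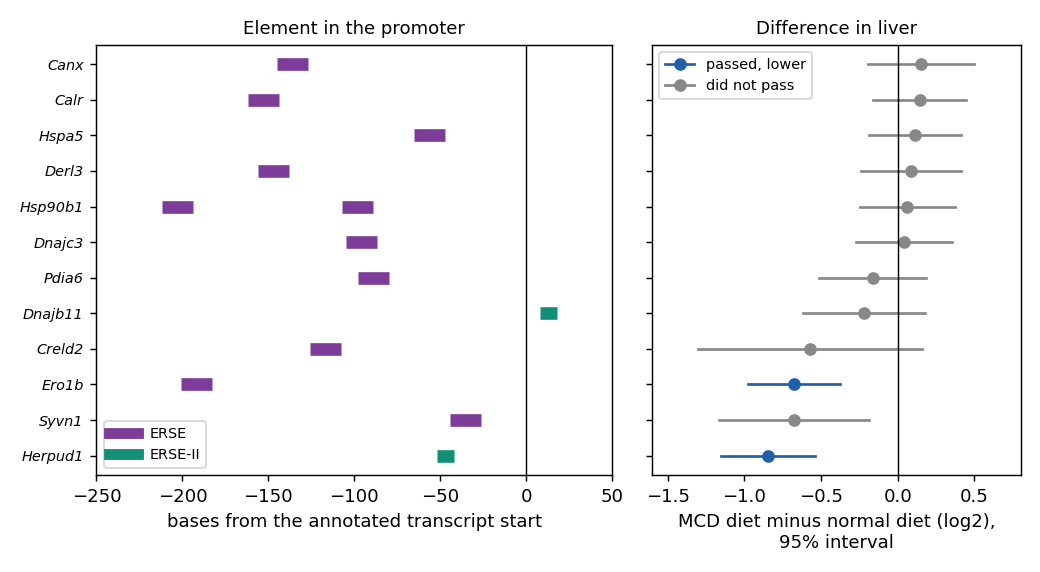
Left, position of ERSE and ERSE-II matches relative to the annotated transcript start, in bases, for the 12 genes that carry them. Right, the difference of the same genes between MCD diet and normal diet livers (log2, with limma's 95% interval, n = 2 arrays per diet), ordered from the highest to the lowest, where Herpud1 and Ero1b passed as lower.

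Beyond the list, 127 other genes of the same machinery were looked up and 117 measured. Of these 7 rose and 4 fell, or 5.98% and 3.42%, with a median difference of -0.0045, where 6.37% of all genes rose and 3.62% fell. Of the 7 increases 2 were in glycosylation genes, 3 in redox genes and 2 in regulators. Stt3b, a catalytic subunit of the oligosaccharyltransferase that attaches glycans, had 8.75 and 8.77 in MCD diet livers, against 7.87 and 7.85 in normal diet livers, and rose by 0.90 ± 0.12 (limma adjusted p = 0.00752). Its paralog Stt3a rose by 0.56 ± 0.12. The replicates nearly coincided for both genes. In the list of 16 glycoprotein genes these were the 2 that rose, or 12.5%, while 0 fell. Among all genes above the median signal 11.5% rose.

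Of 16 further disulfide and redox genes 3 rose, or 18.8%, and 0 fell, where 6.37% of all genes and 11.5% of those above the median signal rose. The redox genes that rose were the peroxidase Gpx8 (0.94 ± 0.15), the membrane thioredoxin Tmx3 (0.89 ± 0.14) and Txndc12 (0.70 ± 0.13). Of 31 further degradation genes, all above the median signal, 0 rose and 3 fell, which is 9.68% against 3.62% of all genes and 6.61% of those above that median: the ubiquitin ligase Rnf5 (fell by 0.82 ± 0.15), the VCP-binding inhibitor Svip (fell by 0.79 ± 0.18) and Tmub1 (fell by 0.56 ± 0.12). Of 16 further sensors and regulators 2 rose, or 12.5%, against 11.5% of genes above the median signal, and 1 fell, or 6.25%, against 6.61%. The regulators that passed were the NF-Y subunit Nfya (0.77 ± 0.14), the protease Mbtps2 that cleaves ATF6 (0.61 ± 0.13) and the phosphatase subunit Ppp1r15b (fell by 0.55 ± 0.13).

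In limma, 0 of 18 further chaperones and 0 of 20 further translocation genes passed. At an unadjusted p under 0.05 there were 5 and 6, or 27.8% and 30.0%. The background was 24.2% of all genes and 38.2% of those above the median signal. Among these chaperones the collagen chaperone Serpinh1 differed by 0.58 ± 0.14 (limma adjusted p = 0.0527) and the prolyl isomerase Fkbp11 by 0.79 ± 0.25 (limma adjusted p = 0.114). Among the translocation genes the largest differences were those of Ssr2 (0.48 ± 0.17) and Srp72 (0.47 ± 0.15). Leaving out 1 array at a time kept the call of Stt3b each time (adjusted p up to 0.0438), whereas each of the other 10 calls outside the list was lost in 3 or 4 of the 4 fits. Other settings also ended some of these calls. Stt3a missed the threshold under median centring (adjusted p = 0.0608), and Tmub1 with an intensity trend (0.0571). Mbtps2 missed it under quantile normalization (adjusted p = 0.0657), median centring (0.0587) and an intensity trend (0.0544). Ppp1r15b missed it under quantile normalization (adjusted p = 0.0544) and an intensity trend (0.0526), and Svip with an intensity trend (0.0513).

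The ATF4 arm of the stress response, which PERK shares with sensors of amino acid shortage and of other stresses, is given beside them. Of 19 measured genes 6 rose, or 31.6%, against 6.37% among all genes and 11.5% among those above the median signal. This list too was chosen with earlier results of these data known, so the share is a description and not a test. While 0 of the 19 fell at the threshold, 7 had negative differences, down to -0.94, and 12 had positive ones. The median difference was 0.13. Differences of at least 1 were found in 5 of the 19, or 26.3%, against 5.25% of all genes and 9.89% of those above the median signal. Asns, the asparagine synthetase, had 7.44 and 7.56 in MCD diet livers, against 3.09 and 3.82 in normal diet livers, and rose by 4.05 ± 0.24 (limma adjusted p = 0.000729). Psat1 of serine synthesis had 4.93 and 4.26 in MCD diet livers, against 2.02 and 1.88 in normal diet livers, and rose (limma adjusted p = 0.00219). Its normal diet signals lay under the median of all rows on their arrays (2.63 and 2.65), so the size of the difference is uncertain. The stress factor Atf3 rose by 1.79 ± 0.18 and Nupr1 by 2.28 ± 0.53.

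The calls of Asns, Psat1 and Atf3 were kept with each array left out. That of Nupr1, whose MCD diet arrays read 6.86 and 5.18, was lost in 3 of the 4 such fits, with adjusted p-values of up to 0.163, and under quantile normalization (0.0553) and median centring (0.0534). Of the same list, Ddit3 (CHOP) and Atf4 itself were picked for naming after their values had been seen. Ddit3 had 4.93 and 5.45 in MCD diet livers, against 4.63 and 4.31 in normal diet livers (0.73 ± 0.21, limma adjusted p = 0.0924). Atf4 had 6.72 and 6.51 in MCD diet livers, against 7.10 and 6.53 in normal diet livers (-0.20 ± 0.21). Neither passed. Whether the ATF4 arm differed from the chaperones was not tested.

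**Figure D4:**
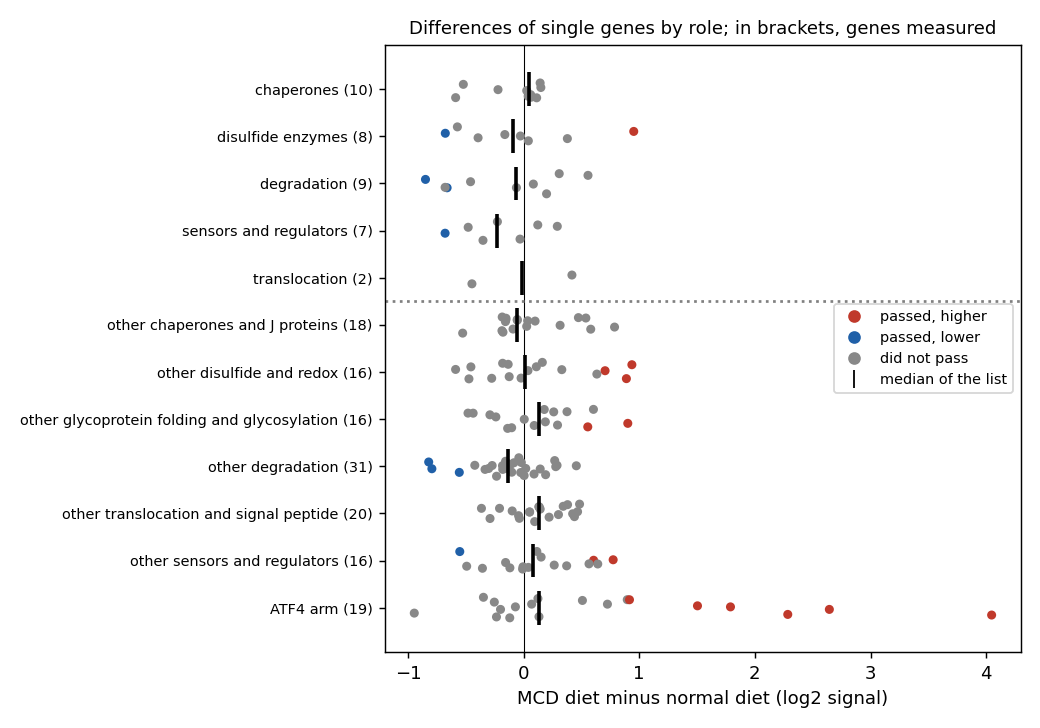
Difference of each gene between MCD diet and normal diet livers (log2 scale, n = 2 arrays per diet) by role, with the 36 genes of the list above the dotted line and further genes of the same machinery and of the ATF4 arm below it. Points are genes and vertical bars are medians: the ER lists stay within 1 of 0, while 5 genes of the ATF4 arm lie beyond 1.

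Marker signals of several cell types differed between the diets, which does not tell cell numbers from RNA per cell. Over all genes 6.37% rose, 3.62% fell and 24.2% had an unadjusted p under 0.05 in limma. Among those above the median signal the shares were 11.5%, 6.61% and 38.2%. All 10 hepatocyte markers lay above the median signal. Of the 10, 0 rose and 1 fell, Apoa1 (fell by 0.50 ± 0.12), a call lost in each fit without 1 array (adjusted p of up to 0.176), with the dimmest 25% of genes left out (0.0503) and under quantile normalization (0.112). The differences were negative for 9 of the 10, with a median of -0.40, and 6 had an unadjusted p under 0.05. Albumin (Alb) differed by -0.04 ± 0.12, at signals of 11.93 to 12.04 close to the array maximum. Their summed linear signal was 17986 to 18644 in MCD diet livers and 20873 to 21554 in normal diet livers. Macrophage markers rose in 9 of 10, with summed signals of 2106 to 3002 in MCD diet livers and 367 to 379 in normal diet livers. Fibroblast and stellate markers rose in 6 of 10 (1896 to 1904 in MCD diet livers, 720 to 880 in normal diet livers). Cholangiocyte markers rose in 7 of 7 (254 to 283 in MCD diet livers, 55.6 to 65.5 in normal diet livers). Such sums weigh the brightest genes most. The macrophage marker Gpnmb had 9.99 and 9.47 in MCD diet livers, against 2.29 and 2.51 in normal diet livers. The fibroblast marker Dcn had 10.45 and 10.37, against 9.16 and 8.89. Median log2 differences were 2.04 for macrophage, 1.07 for fibroblast and stellate and 1.64 for cholangiocyte markers. The part of these cells in the ER gene differences was not tested.

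Plasma cells and exocrine pancreas are secretory cells rich in ER. Of 10 markers of B and plasma cells 1 rose, the immunoglobulin J chain gene Jchain (1.36 ± 0.31, a call lost in 3 of the 4 fits without 1 array, adjusted p of up to 0.180, under quantile normalization, 0.0521, and under median centring, 0.0564), and 0 fell. Their summed signal was 121 to 122 in MCD diet livers and 134 to 149 in normal diet livers. Much of that sum was Sdc1, which epithelial cells also express and which had 60.8 and 63.5 in MCD diet livers, against 96.5 and 80.0 in normal diet livers. Without Sdc1, left out after its values were seen, the sum turned round. It was then 61.5 and 57.3 in MCD diet livers, against 52.3 and 53.8 in normal diet livers. That sum still held Jchain, at log2 signals of 4.45 and 3.52 in MCD diet livers, against 2.80 and 2.45 in normal diet livers. Single differences were negative for 7 of the 10 markers and positive for 3, with a median of -0.13. The turn therefore does not show a rise of the markers as a set. Of 11 markers of exocrine pancreas 0 passed in limma and 1 had an unadjusted p under 0.05, with summed signals of 54.9 to 56.2 in MCD diet livers and 55.2 to 58.7 in normal diet livers. No background value was analysed here, so a dim signal is not told from none.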

How the data were processed

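Liver RNA of 4 samples was amplified, labelled with biotin as single-stranded cDNA and hybridised to gene-level arrays (Mouse Gene 2.1 ST strips), per the labels' protocols. The authors deposited log2 values, for which the submitters' processing notes name Transcriptome Analysis Console. Which version, background method and normalization were used is not given in the sources used here, and the log2 base was inferred from the values, which reach 12.1 on each array. Array medians over all 34472 rows were 2.57 and 2.63 (MCD diet) and 2.63 and 2.65 (normal diet). The number of arrays limits the precision.

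Of the rows, 23521 name 1 gene in the platform annotation, 1814 several and 9137 none. The first kind was used, and per gene the row with the highest mean over the 4 arrays, for 22180 genes. RefSeq (GRCm38.p6) held 23328 of these rows and served for older symbols and promoters. Genes were tested with limma 3.58.1 in R 4.3.3 (two-sided, no block, no filter, Benjamini-Hochberg over all genes, threshold 0.05, 6.06 degrees of freedom after moderation), which was checked on simulated data.

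The gene list, its roles and the further lists were chosen with earlier results of these data known. All genes of the list could be named, and of each further list up to 4 genes that passed or, where none did, 2 as values, and up to 3 of each set of cell markers. Summed signals add the values as powers of 2. Alternatives were quantile normalization, median centring, an intensity trend in the moderation, a filter on the dimmest 25% or 50% of genes, the mean of a gene's rows, a replicate block, leaving out each array and an unadjusted p with at least 2-fold change. The number of unused value columns was 0.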

Additional observations from a re-analysis of the deposited data

How the results depend on the processing

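With 2 arrays per diet, calls near the threshold are fragile. The count of list genes that rose, 1, was 2 with an intensity trend and with the dimmest 50% of genes left out, 3 under quantile normalization, 0 with an unadjusted p and at least 2-fold change, and 0 to 1 with 1 array left out. The count that fell, 4, was 3 under quantile normalization, 5 under median centring, 0 with an unadjusted p and at least 2-fold change and 0 to 3 with 1 array left out, namely 0 if MCD diet replicate 1 or normal diet replicate 2 was left out, 1 for MCD diet replicate 2 and 3 for normal diet replicate 1. Over all genes the count of calls, 2214, was 1155 with an unadjusted p and at least 2-fold change and 1050 to 1493 with 1 array left out. The median difference over the list, -0.029, was -0.095 under median centring and -0.12 to -0.020 with 1 array left out. That of the chaperones, 0.051, was 0.15 under quantile normalization and -0.015 under median centring. That of the 2 translocation genes, -0.014, was 0.011 under quantile normalization, -0.080 under median centring, 0.061 when a gene's rows were averaged and 0.42 without the dimmest 50% of genes, which leaves out Sec61b. Of 395 alternative values of single list genes, 373 kept their side of the threshold, 16 lost a call, 6 gained one and 0 reversed a call. The sign changed for 10 genes, none of which passed. Of 264 such values of the other 24 genes named, 66 lost a call and 3 gained one. Same-numbered arrays of the diets did not deviate together (correlation across genes 0.054). With the replicate block, the count that fell was 3, since Xbp1 was lost (adjusted p = 0.0703), the count that rose was 1, and over all genes 1950 were called. Among the other genes named, the block also ended the calls of Stt3a, Tmub1, Mbtps2, Ppp1r15b, Nupr1 and Apoa1 (adjusted p from 0.0565 to 0.0799).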
